A study of Homo sapiens with 64 samples.

Results

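A set of 42 genes was followed in a human bronchial epithelial cell line given a glucocorticoid, a long-acting β2-agonist, or both. The set is a list of genes by name and role, chosen with earlier results of these data known, so its counts are no independent test. It held keratins, the structural proteins of tight junctions, adherens junctions and desmosomes, and 4 genes of the switch from an epithelial to a mesenchymal state. Of the 42 genes, 35 had at least 1 probe set that the platform annotation assigned to that gene alone, and each was read from its probe set with the highest mean, among 18132 genes measured in the same way. The 35 were 4 of 9 basal and stratified keratins, 4 of 4 simple epithelial keratins, 5 of 6 cadherins, catenins and EPCAM, 10 of 11 tight junction genes, 8 of 8 desmosome genes and 4 of 4 mesenchymal switch genes. KRT6A, KRT6B, KRT16, KRT17, KRT81, CTNND1 and F11R were not analysed here.

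The cells were BEAS-2B, an immortalised line derived from human bronchial epithelium and grown without other cell types. Every group, controls included, had been kept overnight without serum after growth in 10% fetal calf serum. Cells were then left untreated, or given budesonide at 100 nM, formoterol at 10 nM, or both at these doses, and were harvested after 1, 2, 6 or 18 h. Each of the 16 groups held 4 arrays, numbered 1 to 4, which makes 64 arrays. The labels do not say whether the 4 arrays of a group came from separate cultures, so the tests measure the spread between these arrays.

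Keratins are intermediate filament proteins that assemble as pairs of a type I and a type II chain, and the pair in use marks the kind of epithelium. Claudins and occludin seal neighbouring cells at the tight junction, cadherins join cells through catenins at the adherens junction, and desmosomal cadherins anchor keratin filaments through plakophilins, plakoglobin and desmoplakin. SNAI2, ZEB1 and TWIST1 are transcription factors known for repressing junction genes and for a mesenchymal programme marked by vimentin. Budesonide acts through the glucocorticoid receptor, and formoterol acts through the β2-adrenoceptor and cyclic AMP.

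Array values were log2 intensities, on which a difference of 1 is a 2-fold change. Means under 3.02, the lower quartile over every value in the table, were taken as not told from background. Different genes are read by different probes, so a percentile among all genes, where given, ranks the brightness of probe sets and not amounts of transcript. The bulk measurement cannot tell fewer cells expressing a gene from less RNA of that gene in each cell.

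BEAS-2B had a mixed set of these transcripts without any drug. EPCAM, an epithelial surface glycoprotein, the basal keratin KRT15 and the claudin CLDN3 had means below the lower quartile in all 16 groups, and TJP3 in 14 of 16. Each percentile given next ranks a gene's mean over all arrays, treated ones included, and is not a rank in untreated cells. E-cadherin (CDH1) was dim, with a mean of 4.44 over the 16 untreated arrays. Its mean over all arrays was 4.25, at the 35.6 percentile of all genes. The basal keratin partners KRT5 and KRT14 lay at the 36.8 and 35 percentiles, with untreated means of 4.22 and 4.16. N-cadherin (CDH2), vimentin (VIM) and the simple keratin KRT18 were bright, at the 93.3, 99.8 and 97 percentiles. The simple keratin KRT8 lay at the 86.8 percentile, while KRT19, another simple keratin, lay at the 28.7 percentile. Over the 16 untreated arrays EPCAM had a mean of 2.57, and KRT14 ran from 3.81 to 4.58, KRT19 from 3.41 to 3.93 and VIM from 12.83 to 13.12. Thus EPCAM, a defining epithelial marker, was not told from background, while KRT8, KRT18, N-cadherin and vimentin were all well above it.

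Markers of other cell types were read in the same arrays. Of 8 fibroblast and smooth muscle markers 3 were below the lower quartile (LUM, DCN and PDGFRA), while COL1A1 and PDGFRB had means of 8.35 and 8.68 over the 64 arrays. All 5 measured ciliated cell markers were above the quartile, with means of 3.43 (TPPP3) to 5.40 (FOXJ1) over the 64 arrays. TPPP3, DNAI1, RSPH1 and CCDC78 were dimmer than CDH1, at 4.25. By contrast 3 of 5 secretory cell markers (SCGB1A1, BPIFB1 and BPIFA1) and 2 of 5 basal cell markers (KRT15 and DAPL1) were below the quartile. Of 5 measured leukocyte markers 3 were below it, PTPRC, LYZ and CD14, as were 2 of 5 endothelial markers, CDH5 and TEK. The summed level of the fibroblast list ran from 9.43 to 10.05 over the untreated arrays and from 9.44 to 10.36 over the arrays given both drugs. Within it COL3A1 rose by 1.03 ± 0.22 with formoterol at 6 h and fell by 1.18 ± 0.22 with budesonide at 18 h. The sum of the simple epithelial markers KRT8, KRT18, KRT19, EPCAM and CDH1 ran from 11.13 to 11.82 in untreated cells. It ran from 10.32 to 11.82 with budesonide, 10.94 to 11.81 with formoterol and 10.16 to 11.59 with both. The difference between 3′ and 5′ actin probe sets, a sign of RNA quality, had group means from 0.96 to 1.26 in untreated cells, 1.02 to 1.19 with budesonide, 1.09 to 1.38 with formoterol and 1.12 to 1.37 with both. These ranges overlapped between treatments, and the part of these measures in the results was not tested.

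**Figure D1:**
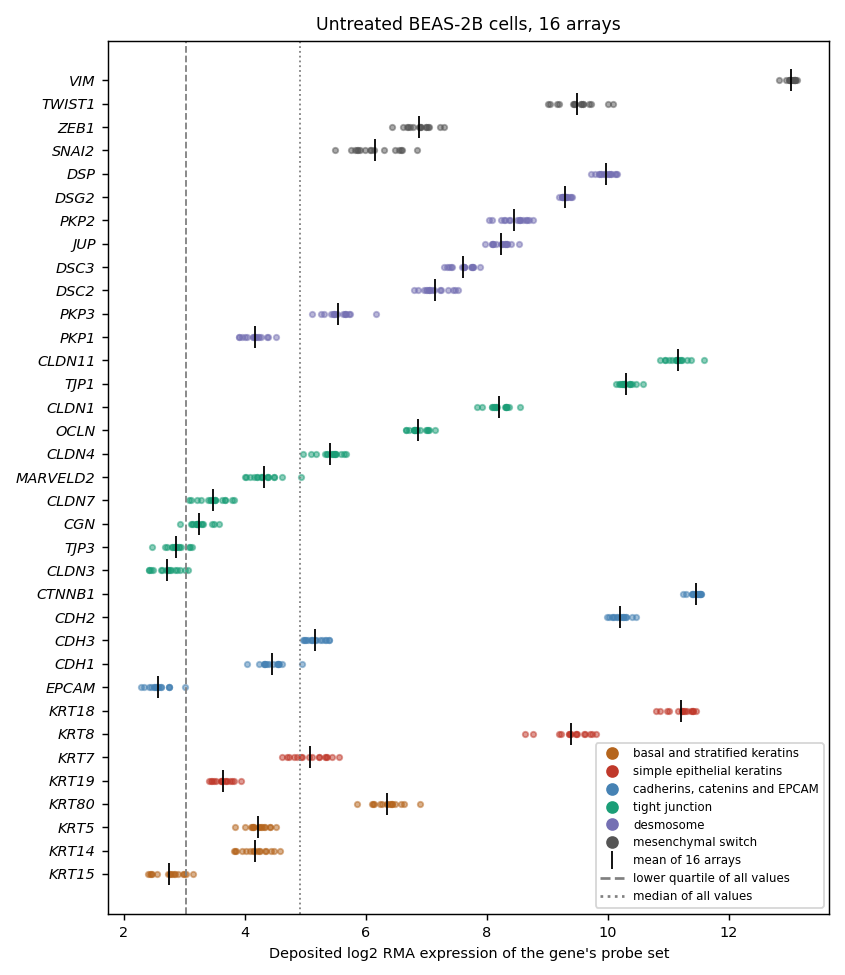
Log2 intensity of the 35 measured genes on the 16 untreated arrays, grouped by role, with the lower quartile of all deposited values drawn as a line. EPCAM, KRT15 and CLDN3 lie below the line, while VIM, CTNNB1, KRT18 and CLDN11 lie near the top.

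Promoter sequence was taken from RefSeq on GRCh38.p14 for genes of the set, called or not. Windows of 300 bases ran from 250 before to 50 after the transcription start. The table held 22 of the 42 genes, with 38 windows in all. Capitals mark matches, on either strand, to CAGGTG (an E-box of the kind SNAI and ZEB factors bind), AGAACA (a glucocorticoid response half-site) and TGACG (a cyclic AMP response half-site). The 4 windows printed were picked from genes that changed. They are those of CLDN1 and OCLN, tight junction genes that fell with budesonide, of DSP, a desmosome gene that fell at 18 h, and of KRT5, a basal keratin that rose. Other genes that changed had windows that are not printed, such as KRT8 and CLDN11, which held no E-box, and DSG2, which held 2. OCLN had 2 windows, and the one with the most matches was picked for print. Its other window held 1 E-box and neither of the other motifs. The CLDN1 window lies at chr3:190322397-190322696 on the minus strand, OCLN at chr5:69492540-69492839 on the plus strand, DSP at chr6:7541421-7541720 on the plus strand and KRT5 at chr12:52520345-52520644 on the minus strand.
CLDN1: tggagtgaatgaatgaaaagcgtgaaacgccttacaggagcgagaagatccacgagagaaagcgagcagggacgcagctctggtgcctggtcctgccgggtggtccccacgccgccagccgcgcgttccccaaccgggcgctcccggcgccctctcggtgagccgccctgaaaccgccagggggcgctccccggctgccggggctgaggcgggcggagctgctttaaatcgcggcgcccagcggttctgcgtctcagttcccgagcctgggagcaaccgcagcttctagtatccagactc
OCLN: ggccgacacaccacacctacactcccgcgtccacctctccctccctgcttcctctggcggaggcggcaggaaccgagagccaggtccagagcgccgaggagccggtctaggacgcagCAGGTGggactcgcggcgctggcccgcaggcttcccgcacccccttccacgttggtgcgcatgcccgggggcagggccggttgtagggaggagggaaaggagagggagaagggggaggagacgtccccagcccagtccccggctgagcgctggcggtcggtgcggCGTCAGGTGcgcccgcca
DSP: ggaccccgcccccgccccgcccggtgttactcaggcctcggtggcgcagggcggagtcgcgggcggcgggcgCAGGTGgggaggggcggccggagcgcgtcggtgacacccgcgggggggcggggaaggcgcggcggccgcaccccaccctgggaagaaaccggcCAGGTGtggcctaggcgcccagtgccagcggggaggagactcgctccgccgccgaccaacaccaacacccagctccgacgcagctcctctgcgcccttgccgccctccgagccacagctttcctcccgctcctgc
KRT5: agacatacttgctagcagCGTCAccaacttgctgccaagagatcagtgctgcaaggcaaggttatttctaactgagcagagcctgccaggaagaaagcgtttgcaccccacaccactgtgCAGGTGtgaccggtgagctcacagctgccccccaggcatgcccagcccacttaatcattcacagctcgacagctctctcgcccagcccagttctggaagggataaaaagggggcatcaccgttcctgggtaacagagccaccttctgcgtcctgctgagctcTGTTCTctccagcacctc

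The printed OCLN window held 2 E-boxes, the second sharing 2 bases with a CGTCA half-site, and the DSP window held 2 E-boxes. The KRT5 window held 1 of each motif, and the CLDN1 window held none of these letters. Over all 35116 windows of this length 20.6% held CAGGTG, 14.8% AGAACA and 24.6% TGACG, against 13, 3 and 12 of the 38 windows of the gene set. A match describes the letters only.

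Budesonide changed few of the 35 genes early and many late. At 1 h limma called 1 gene higher, beside 0.998% of all genes called. At 2 h it called 0 (7 at an unadjusted p under 0.05), beside 3.94% of all genes. With the replicate number as a block, a fit that takes up what same-numbered arrays share, it called 3. The share of all genes called in that fit was not counted. At 6 h 5 rose and 5 fell, beside 14.2% of all genes (6.12% rose and 8.12% fell). At 18 h 3 rose and 11 fell, beside 18.3% of all genes (8.56% rose and 9.78% fell). The median log2 difference at 18 h was -0.03 in the set and 0.03 over all genes.

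Formoterol alone changed 1 gene at 1 h (1.34% of all genes), 1 up and 1 down at 2 h (4.6%), 0 at 6 h by limma (6 at an unadjusted p under 0.05, and 4.81% of all genes called) and 1 at 18 h (1.11%). The combination gave 2 higher at 1 h (2.76% of all genes), and 5 higher and 1 lower at 2 h (9.49%, of which 3.84% higher and 5.65% lower). At 6 h it gave 4 higher and 8 lower (18.6%, 8.61% higher and 9.95% lower), and at 18 h 5 higher and 11 lower (21%, 10.3% higher and 10.7% lower). Its median log2 difference at 18 h was -0.10 in the set and 0.03 over all genes. The treatments were compared with the same untreated arrays of each time. In untreated cells limma called 0 of the 35 between 1 h and 2, 6 or 18 h (1, 3 and 7 genes at an unadjusted p under 0.05, with 0.0165%, 0.21% and 0.364% of all genes called). With the replicate block 4 were called at 18 h against 1 h, and the share of all genes called in that fit was not counted.

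Over the 12 comparisons with untreated cells, 19 of the 35 genes were called at least once, beside 37.8% of all genes. Of the 19, 10 changed at least 2-fold. The share of all genes that did so was not counted, so the 10 have no background beside them. The 16 never called were CDH3, CGN, CLDN3, CLDN4, CLDN7, CTNNB1, DSC2, EPCAM, JUP, KRT14, KRT15, KRT19, MARVELD2, PKP1, TJP3 and VIM. The furthest of these from 0 was MARVELD2, at -0.43 ± 0.17 with the combination at 2 h. CLDN1 was called higher in some comparisons and lower in others, which held for 4.44% of all genes. The effect of a treatment differed between times by limma's moderated F test for 13 of the 35 genes with budesonide, 3 with formoterol and 16 with both, beside 12.7%, 4.51% and 22.6% of all genes.

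**Figure D2:**
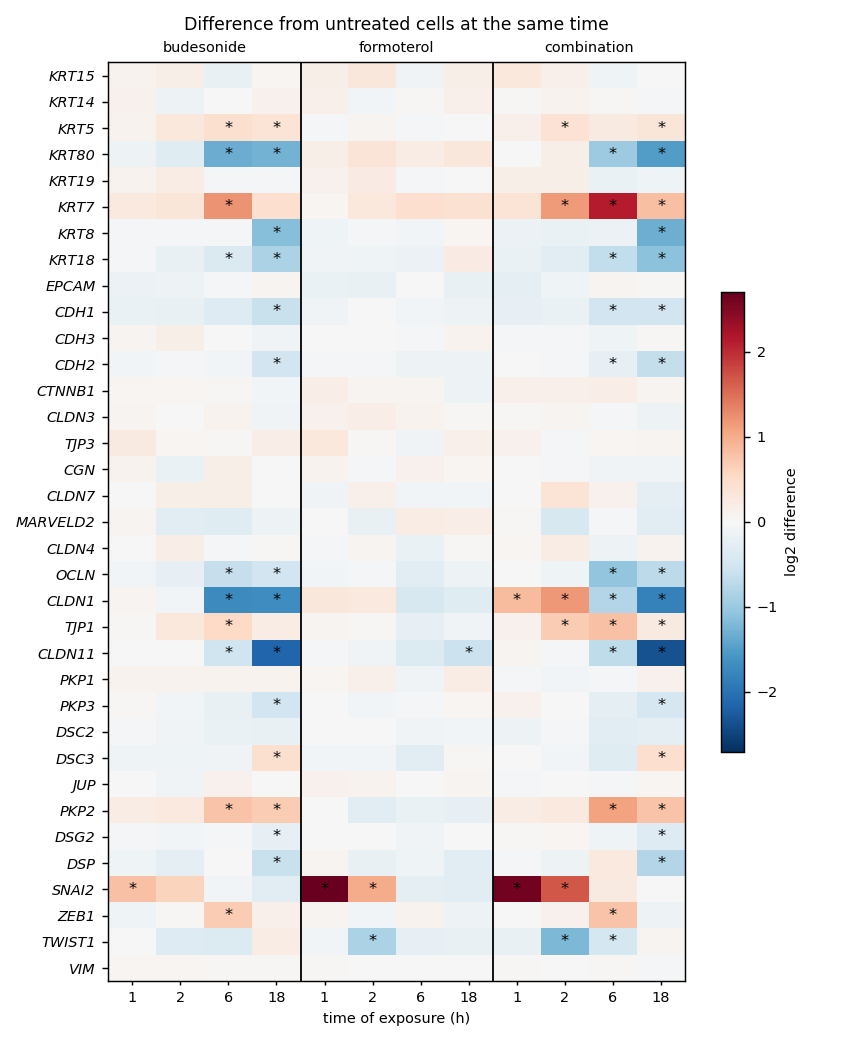
Log2 difference from untreated cells of the same time for the 35 genes (rows, by role) under budesonide, formoterol and the combination at 1, 2, 6 and 18 h (columns), with calls at an adjusted p under 0.05 marked. SNAI2 is high in the 1 h formoterol and combination columns, and CLDN11, CLDN1, KRT80 and KRT8 are low in the 18 h budesonide and combination columns.

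Of the switch factors, SNAI2 and TWIST1 changed within 2 h and in opposite directions, and ZEB1 changed at 6 h. SNAI2, which encodes the repressor Slug, gave the largest rise of the set. At 1 h its untreated arrays read 6.59, 6.54, 6.84 and 6.07, and those with budesonide 7.32, 7.47, 7.52 and 6.86. With formoterol they read 9.15, 9.38, 9.41 and 8.77, and with both drugs 8.98, 9.11, 9.59 and 8.76. Formoterol and combination arrays lay above all untreated and budesonide arrays, and overlapped each other. The rise was 2.67 ± 0.20 (SE, adjusted p = 8.38e-17) with formoterol, 2.60 ± 0.20 with both and 0.78 ± 0.20 (adjusted p = 0.0223) with budesonide. At 2 h SNAI2 was still higher by 1.01 ± 0.20 with formoterol and 1.68 ± 0.20 with both, and at 6 and 18 h no treatment was called. The budesonide call at 1 h was lost without budesonide replicate 1, 2 or 3 or untreated replicate 2 or 4, with values of 0.64 to 0.79. At 2 h the budesonide value of 0.59 passed with the replicate block (adjusted p = 0.00276) and not without it.

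TWIST1, a basic helix-loop-helix factor of mesenchymal cells, went the other way. At 2 h its untreated arrays read 9.68, 9.43, 9.05 and 9.19, budesonide arrays 9.26, 9.01, 9.03 and 8.64, formoterol arrays 8.85, 8.41, 8.22 and 8.46 and combination arrays 8.25, 8.21, 8.05 and 7.96. Formoterol and combination arrays lay below all untreated arrays. TWIST1 fell by 0.85 ± 0.14 (adjusted p = 8.65e-06) with formoterol and by 1.22 ± 0.14 (adjusted p = 4.04e-10) with both, and by 0.86 ± 0.14 with both against budesonide. The budesonide difference of -0.35 at 2 h passed with the replicate block (adjusted p = 0.00483). At 6 h TWIST1 was lower by 0.47 ± 0.14 with both, a call lost without untreated replicate 1 (-0.34).

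ZEB1, a zinc finger repressor of CDH1, rose later. Its untreated arrays at 6 h read 7.00, 6.90, 7.04 and 6.69, against 7.93, 7.56, 7.59 and 7.31 with budesonide, 7.00, 7.18, 7.10 and 6.75 with formoterol and 7.81, 7.68, 7.68 and 7.55 with both. Budesonide and combination arrays lay above all untreated arrays. The rise was 0.69 ± 0.11 (adjusted p = 2.4e-06) with budesonide and 0.77 ± 0.11 with both, and formoterol gave 0.10 ± 0.11, not called. All 7 ZEB1 probe sets were higher with both drugs at 6 h, by 0.18 to 0.88, and 1 of the 7 passed the test. VIM, the intermediate filament of mesenchymal cells, was called in no comparison, and its 16 group means lay between 12.98 and 13.10.

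In untreated cells against those of 1 h, SNAI2 was lower by 0.52 and TWIST1 higher by 0.39 at 18 h with the replicate block (adjusted p = 0.0324 and 0.00662), and neither was called without it. KRT8 and KRT18 were also lower in that blocked fit, by values of -0.38 and -0.25 (adjusted p = 0.0446 and 0.05 as rounded).

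**Figure D3:**
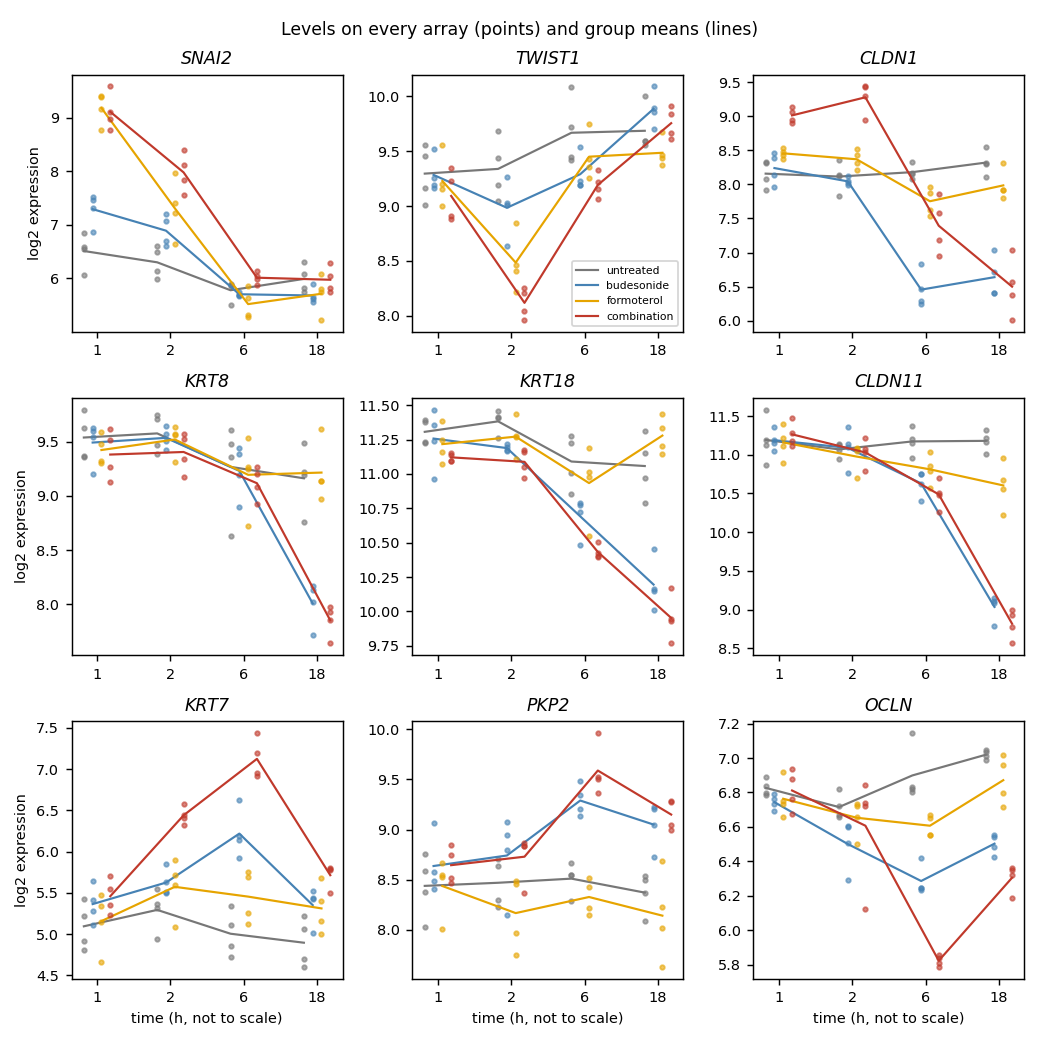
Log2 level of 9 genes against time (axis not to scale) in untreated cells and under each treatment, with every array as a point and lines through the group means. SNAI2 peaks at 1 h with formoterol and with both, whereas CLDN11 and KRT8 lie below all untreated arrays at 18 h with budesonide and with both.

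Tight junction genes changed in both directions. CLDN1, a sealing claudin of airway epithelium, rose early with both drugs and fell later with budesonide. At 2 h its untreated arrays read 8.36, 8.12, 7.83 and 8.14, budesonide arrays 8.13, 8.04, 7.99 and 8.01, formoterol arrays 8.52, 8.44, 8.31 and 8.20 and combination arrays 9.42, 9.29, 8.95 and 9.44. Only the combination arrays lay clear above all untreated and all single-drug arrays. CLDN1 rose by 1.16 ± 0.16 (adjusted p = 2.81e-08) with both, after a rise of 0.85 ± 0.16 at 1 h, while budesonide gave -0.07 ± 0.16 and formoterol 0.25 ± 0.16 at 2 h, neither called.

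By 6 h CLDN1 read 8.32, 8.14, 8.08 and 8.17 in untreated cells and 6.46, 6.29, 6.24 and 6.83 with budesonide. With formoterol it read 7.87, 7.54, 7.63 and 7.96 and with both 7.58, 7.18, 6.95 and 7.86. Budesonide arrays lay below every other array of that time, and the combination arrays lay between budesonide and untreated. Formoterol arrays also lay below all untreated arrays, with a difference of -0.43 that limma did not call (adjusted p = 0.122). CLDN1 fell by 1.72 ± 0.16 (adjusted p = 6.84e-14) with budesonide and by 0.79 ± 0.16 (adjusted p = 6.46e-05) with both. At 18 h the 2 treatments were close, with falls of 1.68 ± 0.16 and 1.82 ± 0.16, and the combination minus budesonide was -0.14 ± 0.16, not called. All 4 CLDN1 probe sets were lower with budesonide at 18 h, by -1.71 to -0.43.

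CLDN11, a claudin best known from myelin and testis, was the member furthest below untreated at 18 h. It read 11.22, 11.32, 11.01 and 11.17 in untreated cells, 9.15, 9.12, 9.09 and 8.79 with budesonide, 10.95, 10.56, 10.68 and 10.22 with formoterol and 8.99, 8.94, 8.56 and 8.78 with both. All arrays with budesonide lay below all without it. It fell by 2.14 ± 0.13 (adjusted p = 2.79e-21) with budesonide and by 2.36 ± 0.13 (adjusted p = 3.47e-23) with both, from 0.54 ± 0.13 and 0.68 ± 0.13 lower at 6 h. The fall of 0.58 ± 0.13 with formoterol at 18 h (adjusted p = 0.00758) was lost without formoterol replicate 4 (-0.45) or untreated replicate 2 (-0.53).

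OCLN, which encodes occludin, fell most with both drugs. At 6 h it read 7.14, 6.82, 6.83 and 6.80 in untreated cells, 6.42, 6.25, 6.23 and 6.25 with budesonide, 6.55, 6.55, 6.67 and 6.65 with formoterol and 5.81, 5.79, 5.84 and 5.85 with both. Combination arrays lay below all budesonide arrays, and these below all untreated arrays. Formoterol arrays also lay below all untreated arrays, with a difference of -0.29 that limma did not call (adjusted p = 0.0507). That difference passed with dim genes left out or with quantile normalization repeated. OCLN fell by 0.61 ± 0.09 with budesonide and by 1.07 ± 0.09 (adjusted p = 5.2e-15) with both, and the combination minus budesonide was -0.46 ± 0.09 (adjusted p = 0.000266). At 18 h it remained lower by 0.52 ± 0.09 and 0.71 ± 0.09. Its neighbour in the genome, with 3 listed genes between, is the tricellular junction gene MARVELD2. MARVELD2 passed for the combination at 2 h with the replicate block (-0.43, adjusted p = 0.0129) and not without it.

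TJP1, the gene of the scaffold protein ZO-1, rose at 2 h, as CLDN1 did, and at 6 h, when CLDN1 and CLDN11 fell. At 6 h it read 10.58, 10.36, 10.27 and 10.27 in untreated cells, 11.17, 10.76, 10.99 and 10.75 with budesonide, 10.18, 10.36, 9.98 and 10.07 with formoterol and 11.34, 11.05, 11.16 and 11.12 with both. Budesonide and combination arrays lay above all untreated arrays. TJP1 rose by 0.55 ± 0.09 (adjusted p = 2.48e-06) and 0.80 ± 0.09 (adjusted p = 6.81e-11) at 6 h, and by 0.68 ± 0.09 with both at 2 h. Its rise of 0.24 ± 0.09 with both at 18 h was lost without combination replicate 1, 2 or 3 or untreated replicate 2, 3 or 4 (0.19 to 0.25). With the replicate block the budesonide values of 0.28 at 2 h (adjusted p = 0.00593) and 0.21 at 18 h (adjusted p = 0.025) passed as well.

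In all, tight junction genes called at 18 h were CLDN1, CLDN11 and OCLN, lower with budesonide and with both, and TJP1, higher with both. The claudins CLDN3, CLDN4 and CLDN7, the scaffold TJP3 and cingulin (CGN) were called in none of the 12 comparisons.

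Keratins of the simple and of the basal and stratified kind each went in both directions. KRT7, a simple type II keratin of glandular and airway epithelium, rose the most among the measured keratins. At 6 h it read 5.11, 5.34, 4.72 and 4.86 in untreated cells, 6.18, 6.62, 5.92 and 6.14 with budesonide, 5.69, 5.75, 5.12 and 5.26 with formoterol and 7.43, 7.20, 6.91 and 6.95 with both. The combination arrays were all above the budesonide arrays, and these above all untreated arrays. KRT7 rose by 1.21 ± 0.18 (adjusted p = 1.47e-07) with budesonide and by 2.12 ± 0.18 (adjusted p = 1.43e-15) with both, and the combination exceeded budesonide by 0.91 ± 0.18 (adjusted p = 0.000173). It was already higher by 1.15 ± 0.18 with both at 2 h and was still higher by 0.82 ± 0.18 at 18 h, when the budesonide value of 0.46 passed with the replicate block (adjusted p = 0.00344) and not without it.

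KRT8 and KRT18, the type II and type I partners of simple epithelium, lie with 1 gene listed between them in RefSeq and both fell at 18 h. KRT8 then read 8.76, 9.19, 9.49 and 9.22 in untreated cells and 8.97, 9.14, 9.61 and 9.14 with formoterol, against 7.71, 8.02, 8.17 and 8.13 with budesonide and 7.64, 7.86, 7.98 and 7.93 with both. KRT18 read 10.79, 10.97, 11.32 and 11.15 in untreated cells, 11.14, 11.20, 11.44 and 11.33 with formoterol, 10.01, 10.16, 10.15 and 10.46 with budesonide and 9.94, 9.77, 9.93 and 10.17 with both. For both genes every array with budesonide lay below every array without it.

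KRT8 fell by 1.15 ± 0.15 (adjusted p = 1.61e-08) with budesonide and by 1.31 ± 0.15 with both, and KRT18 by 0.86 ± 0.10 (adjusted p = 5.05e-10) and 1.10 ± 0.10. All 8 KRT8 probe sets were lower with budesonide at 18 h, by -1.43 to -0.96. KRT18 was also lower at 6 h, by 0.40 ± 0.10 with budesonide and 0.66 ± 0.10 with both, when KRT8 was not called. The KRT8 and KRT18 probe sets read here are of a class that can match related transcripts, so signal from close copies cannot be separated from theirs. With the replicate block KRT18 passed with the combination at 2 h (-0.29, adjusted p = 0.00205).

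Of the basal and stratified keratins, KRT80, a type II keratin of differentiating epithelium, fell and KRT5 rose slightly. At 6 h KRT80 read 6.89, 6.23, 6.13 and 6.43 in untreated cells, 5.21, 5.16, 4.62 and 5.35 with budesonide, 6.78, 6.42, 6.55 and 6.74 with formoterol and 5.76, 5.13, 5.29 and 5.60 with both. Budesonide and combination arrays lay below all untreated arrays. KRT80 fell by 1.34 ± 0.15 (adjusted p = 2.67e-10) and 0.98 ± 0.15 at 6 h, and by 1.28 ± 0.15 and 1.50 ± 0.15 (adjusted p = 3.97e-12) at 18 h. KRT7 and KRT80, which went in opposite directions, lie with 3 listed genes between them.

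KRT5, the type II keratin of basal cells, read 4.41, 4.41, 4.23 and 4.24 in untreated cells and 4.78, 4.81, 4.49 and 4.95 with budesonide at 6 h. The budesonide arrays lay above all untreated arrays, and the rise was 0.43 ± 0.12 (adjusted p = 0.00445). It rose by 0.39 ± 0.12 with both at 2 h, by 0.36 ± 0.12 with budesonide at 18 h and by 0.32 ± 0.12 with both at 18 h, small changes of a dim probe set. The 2 h call was lost without combination replicate 1 (0.36). The budesonide call at 18 h was lost without untreated replicate 2 (0.33) or 4 (0.27), and the combination call at 18 h without any 1 combination array or untreated replicate 2 or 4 (0.23 to 0.33). With the mean of all KRT5 probe sets none of the 4 calls held (0.15 to 0.26). Its usual partner KRT14, KRT15 and the simple keratin KRT19 were called in no comparison.

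Desmosome genes changed mostly at 18 h and by less than 2-fold, apart from plakophilin 2 (PKP2), an armadillo protein that links desmoplakin to the desmosomal cadherins. At 6 h PKP2 read 8.55, 8.66, 8.55 and 8.29 in untreated cells, 9.48, 9.34, 9.20 and 9.13 with budesonide, 8.42, 8.15, 8.52 and 8.22 with formoterol and 9.53, 9.50, 9.96 and 9.37 with both. Budesonide and combination arrays lay above all untreated arrays. PKP2 rose by 0.78 ± 0.18 (adjusted p = 0.000794) with budesonide and 1.08 ± 0.18 (adjusted p = 2.28e-06) with both, and at 18 h by 0.68 ± 0.18 and 0.78 ± 0.18.

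Desmoplakin (DSP), which ties keratin filaments to the junction, fell at 18 h. It read 10.05, 9.95, 10.06 and 10.16 in untreated cells, 9.59, 9.26, 9.57 and 9.35 with budesonide, 9.94, 9.69, 9.86 and 9.56 with formoterol and 9.44, 9.06, 9.31 and 9.26 with both, and all arrays with budesonide lay below all untreated arrays. The falls were 0.61 ± 0.11 (adjusted p = 2.11e-05) and 0.79 ± 0.11 (adjusted p = 6.68e-08).

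The desmosomal cadherins split. Desmoglein 2 (DSG2) fell by 0.22 ± 0.06 with budesonide and 0.34 ± 0.06 with both at 18 h, and the mean of its probe sets gave -0.09 for budesonide, not called. Desmocollin 3 (DSC3) read 7.89, 7.75, 7.40 and 7.62 in untreated cells, 8.20, 8.21, 7.93 and 8.07 with budesonide, 7.88, 7.84, 7.48 and 7.61 with formoterol and 8.27, 8.14, 7.89 and 8.15 with both, and the combination arrays began at about the level of the highest untreated array. DSC3 rose by 0.44 ± 0.12 and 0.45 ± 0.12. Its budesonide call was lost without untreated replicate 3 (0.35), and its combination call with the mean of its probe sets (0.20). DSC2, with 1 listed gene between it and DSC3, passed for both drugs at 18 h with the replicate block (-0.27, adjusted p = 0.025) and not without it. Plakophilin 3 (PKP3) fell by 0.51 ± 0.15 with budesonide, a call lost without untreated replicate 1 (-0.41). Its fall of 0.44 ± 0.15 with both was lost without combination replicate 2 or 3 or untreated replicate 1 or 2 (-0.43 to -0.35). Plakoglobin (JUP) and PKP1 were called in no comparison.

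Both classical cadherins that changed went down. N-cadherin (CDH2) read 10.31, 10.26, 10.39 and 10.10 in untreated cells at 18 h, 9.53, 9.81, 9.81 and 9.86 with budesonide, 9.99, 10.04, 10.29 and 10.15 with formoterol and 9.62, 9.55, 9.71 and 9.63 with both. All arrays with budesonide lay below all untreated arrays. CDH2 fell by 0.51 ± 0.08 (adjusted p = 5.72e-07) and 0.64 ± 0.08 (adjusted p = 1.85e-09). Its fall of 0.23 ± 0.08 with both at 6 h was lost without combination replicate 2, 3 or 4 or untreated replicate 1 or 3 (-0.23 to -0.15).

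E-cadherin (CDH1) read 4.32, 4.61, 4.22 and 4.45 in untreated cells at 18 h, 4.03, 3.65, 3.98 and 3.54 with budesonide, 4.46, 4.33, 4.11 and 4.14 with formoterol and 3.82, 4.18, 3.44 and 4.13 with both. Budesonide and combination arrays lay below all untreated arrays, within a narrow band of low intensities. CDH1 fell by 0.60 ± 0.18 with budesonide and 0.51 ± 0.18 with both at 18 h, and by 0.51 ± 0.18 with both at 6 h. The budesonide call was lost without budesonide replicate 4 or untreated replicate 2 (-0.51 and -0.53). The combination call at 18 h was lost without combination replicate 1 or 3 or untreated replicate 2 or 4 (-0.49 to -0.36), and that at 6 h without combination replicate 3 or 4 or untreated replicate 1 or 2 (-0.53 to -0.34). P-cadherin (CDH3), with 2 listed genes between it and CDH1, and β-catenin (CTNNB1) were called in no comparison.

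What formoterol added to budesonide was tested directly, combination against budesonide at each time. At 1 h 2 genes were called, beside 1.47% of all genes: SNAI2 rose by 1.82 ± 0.20 and CLDN1 by 0.77 ± 0.16. At 2 h 5 rose and 1 fell (4.38% of all genes, 2.83% higher and 1.54% lower). CLDN1 rose by 1.23 ± 0.16, SNAI2 by 1.09 ± 0.20, KRT7 by 0.81 ± 0.18, KRT80 by 0.50 ± 0.15 and TJP1 by 0.40 ± 0.09, while TWIST1 fell. The KRT80 call was lost without budesonide replicate 1, 2 or 4 or combination replicate 1, 3 or 4 (0.45 to 0.51). At 6 h CLDN1 (0.94 ± 0.16) and KRT7 rose and OCLN fell (6.72% of all genes). With the replicate block TJP1 (0.25, adjusted p = 0.0107) and KRT18 (-0.26, adjusted p = 0.0104) passed at 6 h too. At 18 h limma called 0 (5 at an unadjusted p under 0.05), beside 0.651% of all genes.

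**Figure D4:**
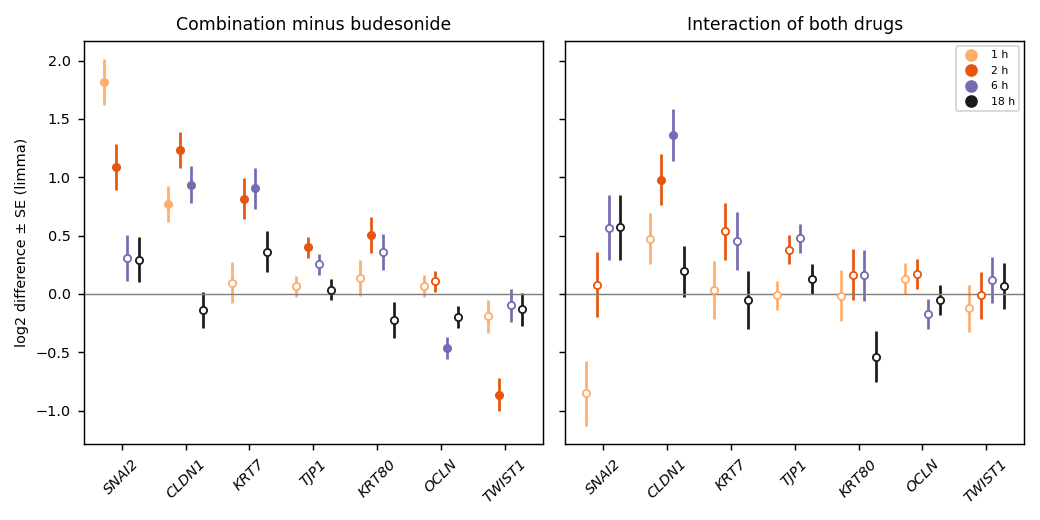
Log2 difference with its SE (limma, 4 arrays a group) between the combination and budesonide alone (left) and the interaction of both drugs (right), at 4 times for the 7 genes called in the first comparison at any time; filled points are called. SNAI2 and CLDN1 are above 0 at 1 and 2 h and CLDN1 and KRT7 at 6 h, and no gene is called at 18 h. In the right panel CLDN1 at 2 and 6 h is called.

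The interaction asks whether the combination departs from the sum of both single effects on the log2 scale. CLDN1 was the gene called, at 2 h by 0.98 ± 0.22 (adjusted p = 0.0107, 0.59% of all genes called) and at 6 h by 1.36 ± 0.22 (adjusted p = 5.78e-05, 0.722%). The call at 2 h was lost without the 16 arrays numbered 1 (0.93, adjusted p = 0.227). At 1 and 18 h limma called 0 of the 35 (3 and 4 at an unadjusted p under 0.05, with 0.171% and 0.276% of all genes called). The SNAI2 interaction at 1 h was -0.85 ± 0.28 and was not called. In the replicate block TJP1 passed at 2 h (0.38, adjusted p = 0.0402).

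Other genes of the same structures were read from lists of named genes, also chosen with earlier results of these data known. Of 45 other junction genes 6 rose and 6 fell with budesonide at 18 h (median log2 difference 0.05), and 2 rose and 4 fell with both, beside 18.3% and 21% of all genes called. TMEM47, a claudin-family junction protein, rose by 1.84 ± 0.09 with budesonide at 6 h, and vinculin (VCL), which links adherens junctions to actin, by 1.40 ± 0.08. With both drugs at 18 h the junction receptor CXADR fell by 1.57 ± 0.16 and NECTIN4, an adherens junction adhesion protein, rose by 1.77 ± 0.25. The armadillo protein PKP4 fell by 1.24 ± 0.09 with both at 6 h.

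Of 6 hemidesmosome and basement membrane attachment genes 1 rose and 3 fell with budesonide at 18 h (median -0.30), and 1 rose and 4 fell with both, beside 9.78% and 10.7% of all genes called lower. The β4 integrin gene ITGB4 rose by 1.05 ± 0.15 with budesonide at 6 h, while the α3 integrin gene ITGA3 fell by 1.07 ± 0.12 with both at 18 h. Of 30 other keratins 0 rose and 2 fell with budesonide at 18 h by limma (2 at an unadjusted p under 0.05), beside 18.3% of all genes called, and KRT33B, a hair keratin, fell by 1.07 ± 0.19.

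Of 27 other mesenchymal switch genes 1 rose and 12 fell with budesonide at 18 h, with a median of -0.33, and 2 rose and 13 fell with both, with a median of -0.38. Over all genes tested 9.78% and 10.7% were called lower, and both medians were 0.03. Tenascin C (TNC), a matrix glycoprotein, fell by 1.80 ± 0.23 with budesonide and 1.52 ± 0.23 with both at 18 h. L1CAM, a neural adhesion molecule, fell by 1.61 ± 0.15 with budesonide and 1.72 ± 0.15 with both at 18 h. The type II cadherin CDH6 fell by 1.21 ± 0.12 and 1.41 ± 0.12 at 6 h, and TWIST2 by 1.03 ± 0.16 with both at 18 h. Not all went down at every time: the forkhead factor FOXC2 rose by 1.80 ± 0.20 with budesonide at 1 h. ZEB2 rose at 2 h, by 0.84 ± 0.18 with budesonide and 1.42 ± 0.18 with both, but was lower by 0.65 ± 0.18 with budesonide at 18 h. Smooth muscle actin (ACTA2) rose by 1.21 ± 0.23 with both at 18 h, with combination arrays that overlapped the untreated arrays. Formoterol raised FSCN1, an actin-bundling protein gene, by 1.05 ± 0.18 at 6 h. Of 20 other epithelial state regulators 1 rose and 3 fell with budesonide at 18 h (median 0.02), beside 18.3% of all genes called. GRHL1, a grainyhead factor of epithelia, fell by 1.29 ± 0.13 with budesonide at 6 h. CD24, a cell surface glycoprotein, rose with formoterol by 1.34 ± 0.21, 2.08 ± 0.21 and 2.24 ± 0.21 at 1, 2 and 6 h. At 18 h CD24 fell by 0.90 ± 0.21 with budesonide and 1.07 ± 0.21 with both.

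Several genes had more than 1 probe set, which gives a reading within the same arrays. Of 78 called pairs of gene and comparison, 22 rested on a gene with 1 probe set (SNAI2, KRT7, KRT80 or TWIST1) and had no second reading. Of the other 56, 53 had every probe set on the same side of 0, and the 3 that did not were CLDN1 for the combination against budesonide at 6 h, DSC3 with both at 18 h and KRT5 with both at 2 h. This count includes the probe set that gave the call and scores direction alone. With the mean of all probe sets, 10 of the 78 calls were lost.

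**Figure D5:**
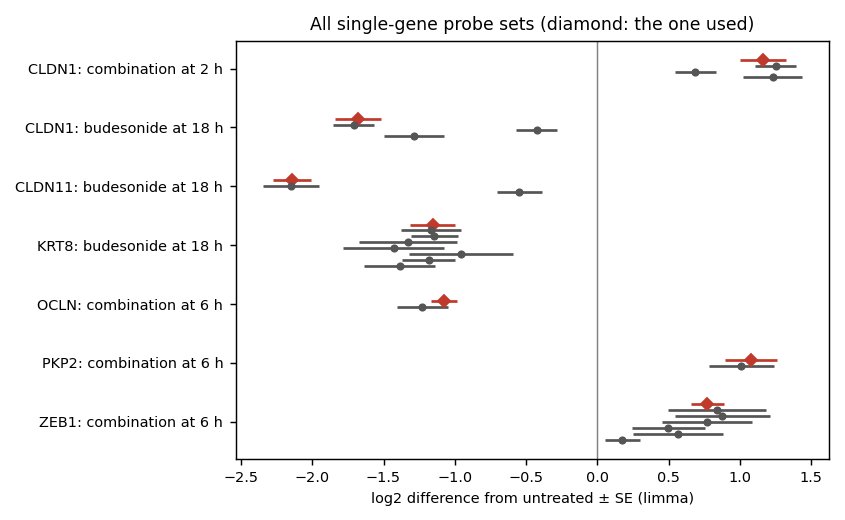
Log2 difference from untreated cells with its SE (limma) for every single-gene probe set of 6 genes in 7 comparisons, with a diamond for the probe set read in the text. All 8 KRT8 probe sets and all 4 CLDN1 probe sets lie below 0 at 18 h with budesonide, and all 7 ZEB1 probe sets lie above 0 at 6 h with both drugs.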

How the data were processed

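RNA of 64 samples was hybridised to Affymetrix arrays, 1 sample an array. The values used are the log2 expression values the authors deposited, made with RMA per the submitters' processing notes; its version and whether all arrays were normalized together are not given in the sources used here. RMA corrects background, normalizes between arrays and sums probes, and it compresses differences of dim probe sets. No further scaling was applied, and the medians of the arrays lay between 4.87 and 4.95.

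The annotation of the platform named a single gene for 44994 of 49395 probe sets, more than 1 for 1832 and no gene for 2569. Each of 18132 genes was read from its probe set with the highest mean over the 64 arrays. limma 3.58.1 (R 4.3.3, with version 1.17.8 of data.table) was fitted to all 16 groups of 4 arrays without covariates, with an intensity trend, a two-sided test, and Benjamini-Hochberg adjustment over all genes within each comparison; a gene was called at an adjusted p under 0.05. SEs are those of this fit. The fit was tested on simulated data. Figures were drawn with Python 3.11.15, pandas 2.3.3 and matplotlib 3.10.9.

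The members, their roles and the other gene lists were chosen with earlier results of these data known. Members were named where they were called, with values by array, or their range, for those that changed at least 2-fold and for cell type checks, and the arrays of ZEB1, TJP1, DSP and DSC3 were added after their values were seen; genes of other lists were named only where called with a change of at least 2-fold, at most 4 a list and comparison. The lists were other junction genes, hemidesmosome and basement membrane attachment genes, other keratins, other mesenchymal switch genes, other epithelial state regulators, and cell type markers.

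Replicate numbers come from the sample titles. Deviations of same-numbered arrays from their group means correlated above 0.1 in every pair in 10 of 19 comparisons (mean correlation 0.117 to 0.442 over the 19), and these 10 were treated as paired where a blocked value is given: formoterol at 1 h, all 4 pairwise comparisons at 2 h, the combination against budesonide at 6 h, budesonide, the combination and their difference at 18 h, and untreated cells at 18 h against 1 h. The interaction at 2 h was read with the pairwise comparisons it is made of. The smallest root mean square difference between 2 arrays of a group was 0.191, so no array was counted as a copy. The number of arrays limits the precision.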

Additional observations from a re-analysis of the deposited data

Results flagged for a closer look

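Among 272 groups of 4 arrays tested for a lone outlying array over 17 genes (those that changed at least 2-fold and the cell type checks), 16 were picked out, and chance flags about 1 in 20 groups. Replicate 1 stood apart 8 times: TWIST1 at 9.54 with budesonide at 6 h (others 9.19 to 9.23) and at 10 in untreated cells at 18 h (others 9.55 to 9.59), OCLN at 7.14 in untreated cells and 6.42 with budesonide at 6 h, KRT5 at 4.27 in untreated cells at 2 h, CDH1 at 4.9 with formoterol at 2 h, CDH2 at 9.53 with budesonide at 18 h and VIM at 12.89 with budesonide at 6 h. Replicate 4 stood apart 4 times: SNAI2 at 5.49 in untreated cells at 6 h, PKP2 at 8.37 with both drugs at 2 h, CLDN11 at 10.69 with formoterol at 2 h and VIM at 12.89 with formoterol at 18 h. Replicate 3 did so 3 times, for KRT7 at 5.5 with both drugs at 18 h and for KRT80 at 6.43 with budesonide at 2 h and 5.85 in untreated cells at 18 h. Replicate 2 did so once, for KRT19 at 3.97 with formoterol at 1 h. The difference between 3′ and 5′ actin probe sets was highest in replicate 1 at 1, 6 and 18 h (1.52 to 2.21), and its part in these values was not tested.

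The effect of a treatment differed between 1, 2, 6 and 18 h by limma's moderated F test, adjusted over all genes, for 13 members with budesonide, where 12.7% of all genes did so. Adjusted p was 9.52e-16 for CLDN11, 4.06e-12 for CLDN1, 2.47e-06 for KRT80, 3.67e-05 for KRT8, 7.8e-05 for KRT18, 0.000568 for ZEB1, 0.00216 for CDH2, 0.00411 for OCLN, 0.00496 for SNAI2, 0.0108 for KRT7, 0.02 for TJP1, 0.0238 for DSP and 0.0356 for DSC3. With formoterol, where 4.51% of all genes did so, it was 3.33e-13 for SNAI2, 0.0275 for TWIST1 and 0.0332 for CLDN1. With the combination (22.6% of all genes) it was 1.93e-18 for CLDN1, 8.59e-18 for CLDN11, 2.74e-12 for SNAI2, 3.11e-10 for OCLN, 1.85e-09 for KRT80, 4.74e-07 for KRT7, 1.38e-06 for KRT18, 2.15e-06 for DSP, 2.85e-06 for TWIST1, 8.68e-06 for TJP1, 9.62e-06 for KRT8, 1.13e-05 for CDH2, 2.02e-05 for ZEB1, 0.000393 for DSG2, 0.00421 for DSC3 and 0.0122 for PKP2. All 35 measured members were tested this way. SNAI2 and TWIST1 had their differences early, and CLDN11, KRT8 and CDH2 late.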

How the results depend on the processing

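Of 78 called pairs of gene and comparison, 59 kept their call under every alternative run and 19 lost it under at least 1; none changed direction. Calls were lost for 0 pairs with the replicate block, over all times or within a time, 0 with dim genes left out, 1 with arrays centred on their median, 2 with quantile normalization repeated, 6 with the compared arrays fitted alone, 8 without all replicate 1 arrays and 10 with the mean of all probe sets. In the replicate block, members called were 3 for budesonide at 2 h, 6 for formoterol at 6 h, 2 for formoterol at 18 h, 5 for the combination against budesonide at 6 h, 1, 2, 2 and 1 for the interaction at 1, 2, 6 and 18 h, and 2 and 4 for untreated cells at 6 and 18 h against 1 h. With the replicate block within a time they were 3 for budesonide at 2 h, 6 and 3 for formoterol at 6 and 18 h, 9 and 1 for the combination against budesonide at 6 and 18 h, and 1, 2, 3 and 2 for the interaction; that fit cannot compare times. Without all replicate 1 arrays, budesonide at 1 h and the interaction at 2 h gave 0. With the compared arrays alone, formoterol gave 1 at 6 h and 0 at 18 h. Formoterol at 6 h gave 1 with dim genes left out and 1 with quantile normalization, and the interaction at 6 h gave 2 with dim genes left out and 2 with the mean of probe sets. The blocks beside other results changed no count by over 1.5 times. The share of all genes called in the blocked fits was not counted by comparison, so the blocked counts have no background beside them. In the moderated F test the block within a time raised the calls over all genes. They went from 2305 to 4284 with budesonide, 818 to 2374 with formoterol and 4106 to 6321 with both.

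Leaving out 1 array at a time gave, at 1, 2, 6 and 18 h in turn, budesonide 0 to 1, 0 to 1, 10 to 11 and 13 to 15, formoterol 1, 2 to 3, 0 to 1 and 0 to 1, and the combination 2, 5 to 7, 9 to 13 and 12 to 16. The combination against budesonide gave 2, 5 to 6, 3 to 5 and 0, the interaction 0, 1, 1 to 2 and 0, and untreated cells at 2, 6 and 18 h against 1 h gave 0, 0 to 1 and 0. In comparisons not treated as paired, the block is given as a count alone. Intensities near the lower quartile, as for EPCAM, CLDN3, KRT15 and TJP3, limit what a difference can show.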
